A study of Mus musculus with 3 samples.

Results

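The spots examined here were the 112 spots of a sham heart section with the most Ankrd1 RNA, out of 2234 spots kept in that section and 6276 kept in the 3 sections of the series. Ankrd1-high spots were selected on Ankrd1 alone: a spot entered when its Ankrd1 UMIs per 10000 UMIs lay above the 95th percentile of the sham spots, and the other 2122 sham spots served as the comparison. The section came from the heart of a C57BL/6 mouse of 8 weeks that had received vehicle by gavage for 7 days and then an operation in which the needle was passed with no ligation. The I/R mouse also received vehicle, followed by 30 min of coronary ligation and 24 h of reperfusion, and the SBP mouse received MUSKARDIA solution, the drug called SBP, by gavage for 7 days before the same ischemia. All 3 mice were C57BL/6. Each condition was 1 section of 1 heart measured by spatial transcriptomics (Visium), in which RNA is captured on barcoded spots, each a small area that can hold several cells of different types. Spots of 1 section are not replicates of the condition, so no test across samples was possible and no p-value is given.

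Ankrd1 encodes a muscle ankyrin repeat protein of the sarcomere and nucleus that binds titin and is known to be induced by stretch, pressure load and injury of the heart. The natriuretic peptides Nppa and Nppb are hormones that heart muscle releases under wall stress, and their genes belong, with Acta1 and Myh7, to the fetal set that stressed adult muscle uses again. In the adult ventricle Ankrd1 is made mainly by cardiomyocytes, while chemokines, matrix proteins and their inhibitors come mostly from fibroblasts, endothelium and immune cells.

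Several fetal muscle genes are known targets of TEAD factors, which bind the MCAT element. The RefSeq promoters (GRCm38.p6) of Ankrd1 and of natriuretic and wall stress genes were therefore searched for the core of this element, CATTCC. Both strands were searched in the 250 bases before each start. Of 7 genes looked up, namely Ankrd1 and the 6 natriuretic and wall stress genes that were at least 2-fold higher in Ankrd1-high spots, 4 had a match in a promoter. The sites are shown 5′ to 3′ on the strand of the gene, with the match in capitals and 12 bases on either side in lower case.
Ankrd1, chr19:36120037-36120066, minus strand, 210 bases before the start: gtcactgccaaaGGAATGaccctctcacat
Ankrd1, chr19:36119950-36119979, minus strand, 123 bases before the start: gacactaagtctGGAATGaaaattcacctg
Nppb, chr4:147985783-147985812, plus strand, 105 bases before the start: gctcagccggcaGGAATGcagctgataaat
Acta1, chr8:123894804-123894833, minus strand, 46 bases before the start: gaagggcagcaaCATTCCttcggggcggtg
Ankrd23, chr1:36535842-36535871, minus strand, 120 bases before the start: cccagtgggccaCATTCCcagaacggtatt
The capitals read as the core in Acta1 and Ankrd23 and as its reverse complement in Ankrd1 and Nppb. By GENCODE M21 the Ankrd1 and Nppb sites lie in an untranslated exon of a transcript with an earlier start, and the Acta1 and Ankrd23 sites lie in no exon of these genes. Ankrd23 had a match in 1 of its 2 promoters, and Fhl1, Rcan1 and Nmrk2 had none in these windows. The core occurred in 12.6% of all 32851 promoters, in 10.9% of the 6925 promoters of genes with 200 or more UMIs, and in 12.5% of the 280 promoters of genes that were at least 2-fold higher in Ankrd1-high spots. The share with 2 or more matches was 0.992%, 0.794% and 2.86% in the same order. Ankrd1, which chose the spots and has 2 matches, is counted in each of these shares and among the 4 genes with a match. The shares count promoters, whereas the 4 of 7 counts genes, some of them with 2 promoters. The 4 of 7 is therefore not the same measure as the shares.

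The sham section held 25118258 UMIs in the kept spots, and 3 further spots, with under 200 detected genes, did not enter. A level below is the number of UMIs of a gene per 10000 UMIs, summed over the spots of a kind unless a single spot is named. The threshold was 26.96 Ankrd1 UMIs per 10000, with the nearest spots inside it at 27.05 and 27.11 and the nearest outside at 26.90 and 26.88. Ankrd1 itself, the gene that chose the spots, ran from 27.1 over a median of 33.6 to 66.9 in Ankrd1-high spots, and from 0 over 4.22 to 26.9 in the others. Ankrd1-high spots gave 7.35% of all UMIs of the section and 30.3% of its Ankrd1 UMIs. They were deeper than the others, with a median of 14927 UMIs (3429 to 40890) against 10501.5 (786 to 39072) and a median of 2945 detected genes against 2017. The median share of UMIs from mitochondrially encoded genes was 46.4% against 49.6%. Among spots of 10000 to 20000 UMIs alone, a comparison added after seeing the data, 71 of them Ankrd1-high, the log2 ratios described below were 1.45 for Acta1, 1.35 for Nppb, 3.75 for Cxcl5 and -1.64 for Hbb-bs, against 1.51, 1.23, 3.41 and -1.94 over all spots.

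**Figure D1:**
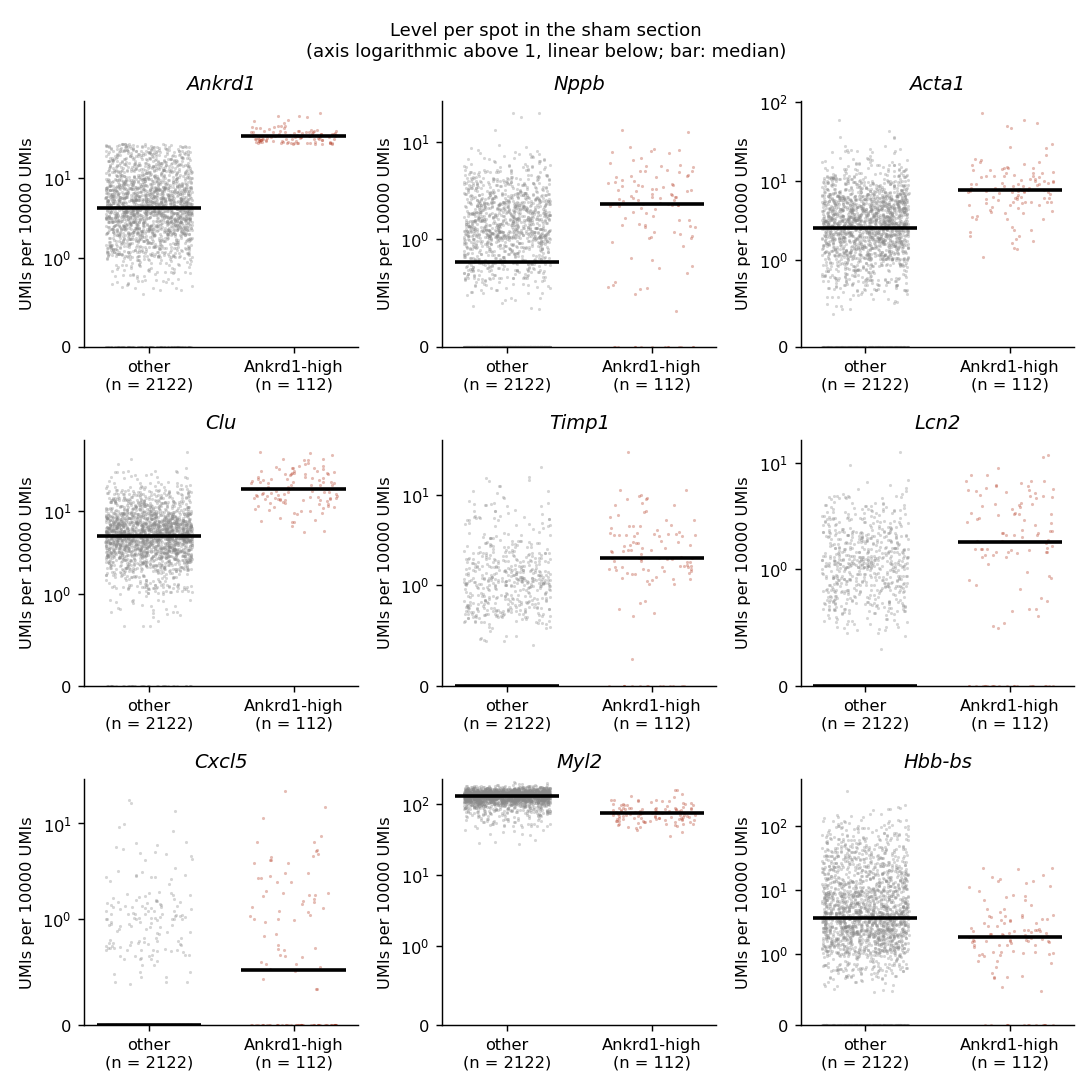
Level of 9 genes in each spot of the sham section, in UMIs per 10000 UMIs on an axis that is logarithmic above 1 and linear below, for the 112 Ankrd1-high and the 2122 other spots; points are spots and bars are medians. Clu, Acta1 and Nppb had higher medians in Ankrd1-high spots (18.3, 7.67 and 2.29 against 5.02, 2.5 and 0.787), Myl2 and Hbb-bs had lower ones, and for each gene other than Ankrd1 the 2 kinds of spots overlapped.

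Of 6660 genes with 200 or more UMIs in the section, 300 (4.5%) were at least 2-fold higher in Ankrd1-high spots and 59 (0.886%) at least 2-fold lower. The 300 include Ankrd1, which chose the spots, and were 299 without it. The filter counts the UMIs of both kinds of spots, so a gene can pass it only through the spots where it is high. How many of the 300 did so was not counted. For 86 of the higher genes, Ankrd1 among them, and 5 of the lower genes the whole 95% interval lay past 2-fold. Intervals are exact and cover counting error only. The median log2 ratio of all genes was 0.27, and 0.17 when mitochondrially encoded genes were left out of the totals. With TMM or median-of-ratios factors, which place that median at 0, the counts became 111 higher and 145 lower. These counts over all 6660 genes are the background for the counts of each gene list below. Every log2 ratio below is smaller by this median on that scale, and a ratio between 0 and 0.27 turns its sign. In such summed spots, more cells of a type and more RNA per cell cannot be told apart.

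Ankrd1-high spots of the sham heart were marked first by genes of inflammation and matrix remodelling. Cxcl5, a chemokine that attracts neutrophils, had the highest ratio. It ran from 0 over a median of 0.519 to 21.9 per 10000 in Ankrd1-high spots and from 0 over 0 to 17.5 in the others, and its summed level was 1.49 (1.31 to 1.67) against 0.14 (0.125 to 0.156), a log2 ratio of 3.41 (3.17 to 3.65). A small number of spots weighed on this value, since the 1% of sham spots richest in Cxcl5 held 46.1% of its UMIs. Timp1, the secreted inhibitor of matrix metalloproteinases, had a median of 1.99 and a highest spot of 29.7 in Ankrd1-high spots, against 0 and 20.3 in the others, and a log2 ratio of 2.64 (2.49 to 2.78). Lcn2, an iron-carrier-binding protein of neutrophil granules and of the acute phase, had a median of 1.78 against 0 and a log2 ratio of 2.52 (2.37 to 2.66). Serpinb1a, an inhibitor of neutrophil proteases, stood at 2.85, the monocyte chemokine receptor Ccr2 at 2.44, the collagen cross-linking enzyme Lox and the TGF-β pseudoreceptor Bambi each at 2.38, and the metalloproteinase Mmp3 at 2.06. The acute phase glycoprotein Lrg1 (2.06), the metal-binding Mt2 (2.21), the retinoic acid enzyme Aldh1a2 (2.26), Mybpc2, a myosin-binding protein of fast skeletal muscle (2.29), and Spp1, or osteopontin (1.74), completed the 15 genes with the highest lower bounds together with Ankrd1 and Clu. Spp1 was the most uneven of the 15, with a median of 0.497, a highest spot of 132 and 54.5% of its UMIs in the richest 1% of spots.

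Clu, which encodes the secreted chaperone clusterin, was the gene whose level followed Ankrd1 most closely over the spots. It was detected in all 112 Ankrd1-high spots, from 5.52 over a median of 18.3 to 51.2, against 0 over 5.02 to 51.6 in the others, and its log2 ratio was 1.86 (1.81 to 1.91). Every Ankrd1-high spot lay above the median of the other spots, and 45 of the 2122 others lay above the median of the Ankrd1-high spots. Among 905 genes with 2000 or more UMIs, the Spearman correlation with Ankrd1 over the 2234 spots was 0.467 for Clu, 0.394 for the ribosomal protein gene Rplp1, 0.393 for Acta1, 0.389 for the tubulin gene Tuba1b and 0.388 for the collagen gene Col3a1. These spots share 1 library and differ in depth, so the correlations only describe this section.

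**Figure D2:**
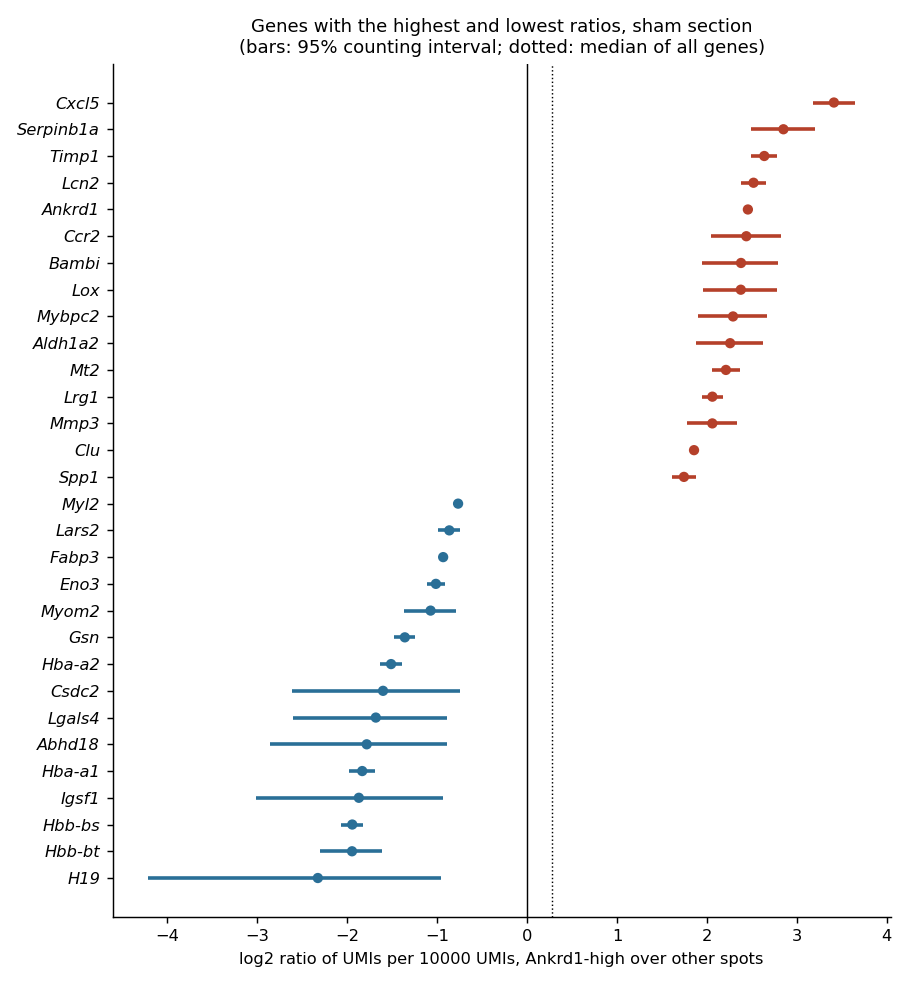
Log2 ratio of the summed levels in Ankrd1-high over other sham spots for the 15 genes with the highest lower bound and the 15 with the lowest upper bound; points are ratios, bars are 95% counting intervals, and the dotted line is the median of all genes (0.27). Ratios ran from 1.74 for Spp1 to 3.41 for Cxcl5 on the high side and from -0.77 for Myl2 to -2.33 for H19 on the low side.

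The natriuretic peptides split. Nppb ran from 0 over a median of 2.29 to 13.2 in Ankrd1-high spots and from 0 over 0.787 to 20 in the others, and 88 of the 112 spots lay above the median of the others. Its summed level was 2.64 (2.42 to 2.89) against 1.12 (1.08 to 1.17), a log2 ratio of 1.23 (1.09 to 1.37), which was 0.96 and so short of 2-fold with TMM factors. Nppb ranked 125 of the 6660 genes by this ratio. Nppa ran from 0 over 1.47 to 156 in Ankrd1-high spots and from 0 over 1.22 to 270 in the others, with a log2 ratio of 0.20 (0.10 to 0.29), below the median of all genes and -0.08 with TMM factors. The richest 1% of spots held 36.2% of the Nppa UMIs, and the Nppa ratio was 0.81 when each spot had equal weight and -0.94 for the 23 spots above the 99th percentile of Ankrd1, so that its direction depended on the scaling and on which spots were taken. The processing enzymes Furin (0.37) and Corin (0.33) and the receptors Npr1 (0.09) and Npr2 (-0.23) were all short of 2-fold, the receptor Npr3 had 3 UMIs in Ankrd1-high spots and Nppc had 0. Of the 6 measured genes of this list 1 was at least 2-fold higher, and the list's median of 0.26 was close to that of all genes.

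Wall stress and fetal muscle genes were higher in part. Of 20 measured genes 5 were at least 2-fold higher and 0 at least 2-fold lower, beside 4.5% and 0.886% of all genes. The list median was 0.51 beside 0.27 for all genes. With TMM factors the counts became 4 and 1, beside 111 and 145 of all 6660 genes. Acta1, the skeletal α-actin of the fetal heart, ran from 1.08 over a median of 7.67 to 74.4 in Ankrd1-high spots and from 0 over 2.5 to 59.8 in the others, and 101 of the 112 spots lay above the median of the others. Its summed level was 9.93 (9.48 to 10.4) against 3.49 (3.41 to 3.56), a log2 ratio of 1.51 (1.44 to 1.58). Fhl1, a LIM-domain protein of the titin spring region, had a median of 2.08 against 0.678 and a ratio of 1.62 (1.47 to 1.75). Nmrk2, a nicotinamide riboside kinase of stressed muscle, stood at 1.55 (1.12 to 1.96), the calcineurin regulator Rcan1 at 1.45 (1.12 to 1.76), and Ankrd23, a relative of Ankrd1, at 1.17 (0.97 to 1.37). The small chaperone Cryab (0.72), desmin (Des, 0.69), filamin C (Flnc, 0.62) and Xirp2 (0.54) had intervals above 0 and were short of 2-fold. Myh7, the fetal myosin heavy chain, was at 0.22 (0.01 to 0.42) and Xirp1 at 0.03 (-0.21 to 0.26), both of which turn negative with TMM factors. On the low side stood the cardiac α-actin Actc1 (-0.45), Lmcd1 (-0.58) and Fhl2 (-0.78), a second LIM-domain protein. Of the YAP and SRF target genes, 0 of 10 were 2-fold higher, Ccn2 being the closest at 0.98 (0.66 to 1.3), and all 10 had positive log2 ratios with a median of 0.46, of which those below 0.27 turn with TMM factors.

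Chemokine and acute phase genes gave 7 of 9 measured genes at least 2-fold higher and 0 lower, beside 4.5% and 0.886% of all genes. Their median log2 ratio was 1.49, and 6 of 9 were at least 2-fold higher with TMM factors. The monocyte-attracting chemokines Ccl2 and Ccl7 stood at 1.80 (1.54 to 2.06) and 1.75 (1.52 to 1.98), Ccl9 at 1.49, Ccl6 at 1.38 and the oncostatin M receptor Osmr at 1.21. Cxcl12, a chemokine of stroma and endothelium (0.35), and Cxcl14 (-0.19) were short of 2-fold. Cxcl2 and Il6 had 0 UMIs in Ankrd1-high spots and 11 and 6 in the others. The labels describe a heart without ischemia, and genes of injury were nevertheless among the most unequal genes between these spots and the rest of the section, so the spots are called by their rule here and not as uninjured tissue.

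Immune cell genes were less uniform. Of 15 macrophage and monocyte genes, 4 were at least 2-fold higher, namely Ccr2 (2.44), Adgre1 (1.43), Cd68 (1.17) and Ms4a7 (1.06), and 2 of them with TMM factors. The share over all genes was 4.5%. The filter of 200 UMIs counts both kinds of spots, and Ccr2 passed it only with its UMIs in Ankrd1-high spots included. Of the other 11, Mrc1 was at 0.89 (0.61 to 1.16), Pf4 at 0.68 (0.45 to 0.90), Lyz2 at 0.61 (0.50 to 0.72) and C1qa at 0.51 (0.33 to 0.68). The 3 negative ratios among the 15, of Cbr2 (-0.08), Folr2 (-0.18) and Lyve1 (-0.50), had intervals that spanned 0. The list median was 0.51. Of 3 measured neutrophil genes, Lcn2 and S100a9 (1.42, 0.97 to 1.86) were at least 2-fold higher and S100a8 was at 0.80 (0.21 to 1.34). Of the neutrophil-defining genes, Ly6g, Ngp, Camp and Retnlg were at 0 UMIs in Ankrd1-high spots, while Csf3r and Mmp9, which fell under the filter of 200 UMIs, had log2 ratios of 1.77 (1.05 to 2.43) and 2.25 (1.61 to 2.87) on 24 and 31 UMIs, and Cxcr2, on 7 UMIs, had one of 2.22 (0.72 to 3.53). The summed neutrophil list, mostly Lcn2, had a log2 ratio of 2.21 (2.09 to 2.33). Lcn2 is also made by stressed muscle and epithelium, and which cells made it was not tested. The MHC class II genes H2-Ab1 (1.28), Cd74 (1.06) and H2-Aa (1.04), which present antigen, were at least 2-fold higher, of which H2-Ab1 remained so with TMM factors, and H2-Eb1 was at 0.92. Ighm, an immunoglobulin gene, was the only other of the 5 measured genes of the T, B and dendritic cell list. Its ratio was negative and short of 2-fold. The T and B cell genes Cd3e, Cd3g, Cd79a and Ms4a1 had 0 UMIs in Ankrd1-high spots and Cd3d had 1. These genes and the neutrophil genes at 0 UMIs all fell under the filter of 200 UMIs. Ankrd1-high spots gave 7.35% of the UMIs of the section, so such zeros do not show that these cells were absent.

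Of 11 measured genes of injury and activated fibroblasts, 8 were at least 2-fold higher and 0 lower, also with TMM factors, and the list median of 1.65 was the highest of all lists with 5 or more measured genes. Beside Timp1, Lox and Spp1 these were the Wnt modulator Sfrp2 (2.0), periostin (Postn, 1.84), Tgfbi (1.65), fibronectin (Fn1, 1.63) and Col8a1 (1.42). Among 18 fibroblast genes the fibrillar collagens Col1a1 (1.60), Col1a2 (1.54) and Col3a1 (1.46) and Fstl1 (1.18) were at least 2-fold higher. Several genes of resting fibroblasts were on the low side: Dcn was at -0.41, Pi16 at -0.67 and Gsn at -1.36 (-1.48 to -1.24), and the list median was 0.12, which is -0.16 with TMM factors. Basement membrane and matrix genes gave 3 of 18 at least 2-fold higher, Col5a1 (1.34), Fbn1 (1.16) and Col18a1 (1.08), with a median of 0.58. Over all genes 4.5% were at least 2-fold higher. All 22 non-muscle cytoskeleton genes had positive ratios and 12 were at least 2-fold higher (3 with TMM factors), led by S100a4 (1.66), the tubulin Tubb6 (1.48) and annexin A2 (Anxa2, 1.46), with a median of 1.0.

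The arterial smooth muscle, pericyte, capillary, and arterial and venous endothelial lists each gave 0 or 1 gene past 2-fold in either direction. Over all genes 4.5% were higher and 0.886% lower. Counts of 0 or 1 in lists of 7 to 15 genes are too small to set these vessel genes apart either way. The endocardial list had 2 lower genes and the lymphatic list 2 higher ones. Of 10 arterial smooth muscle genes 0 were 2-fold higher or lower, with a median of 0.32. Acta2 ran from 0 over 1.98 to 69.1 in Ankrd1-high spots and from 0 over 1.66 to 59.2 in the others, with a log2 ratio of 0.13 (0.00 to 0.26) that is -0.14 with TMM factors, and Myh11, the smooth muscle myosin, was at 0.26 (-0.19 to 0.67). Of 15 capillary endothelial genes 0 were higher and 1, Btnl9, was at least 2-fold lower on 4 UMIs, and the median was -0.14, with Pecam1 at 0.10 (-0.22 to 0.41), Kdr at -0.49 (-0.85 to -0.15) and Aqp1 at -0.41. Of 7 arterial and venous endothelial genes 0 were higher and 1 lower, with a median of 0.55. The lower one, the von Willebrand factor gene Vwf of larger vessels and endocardium, was at -1.02 (-1.55 to -0.54), while Vcam1, an adhesion molecule for leukocytes, was at 0.85 (0.38 to 1.28). Of the pericyte genes only Steap4 of 10 reached 2-fold (1.12), and 0 of 10 did with TMM factors. Endocardial genes had a median of -0.48 with 2 of 5 at least 2-fold lower, Vwf and Cytl1. Of 6 lymphatic endothelial genes Pdpn (1.43) and Fgl2 (1.40) were at least 2-fold higher, Flt4 was at 0.67 (0.02 to 1.26) and the chemokine gene Ccl21a at 0.52 (0.28 to 0.75), and Prox1 (-0.40) and Lyve1 (-0.50) had intervals that spanned 0. The list median was 0.59, its summed level had a log2 ratio of 0.71 (0.57 to 0.85), and 17 of the 112 spots (15.2%) were among the highest 5% of sham spots by that sum.

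Markers of atrial muscle and of the heart surface were checked because both tissues can border a section. The atrial genes Myl7, Bmp10 and Fgf12 had 0 UMIs in Ankrd1-high spots, Sln had 1 and Myl4 had 5, and the summed atrial list, 9.06 to 179 per 10000 in Ankrd1-high spots and 0 to 295 in the others, held Clu and Nppa as its most abundant genes. The Nppb ratio was 1.22 without the spots highest in the atrial genes other than Clu and Nppa. Of 18 epicardial and mesothelial genes, 12 had 0 UMIs in Ankrd1-high spots, Msln, Upk3b and Upk1b among them, and 2 passed the filter, Aldh1a2 (2.26) and C3 (0.22, negative with TMM factors). The summed list stood at 2.09 per 10000 in Ankrd1-high spots (0 to 8.72 over spots) and at 1.53 in the others (0 to 17.4). Its log2 ratio was 0.45 (0.29 to 0.60). Ankrd1-high spots gave 7.35% of the UMIs of the section, and the genes at 0 UMIs all fell under the filter. These zeros do not show that atrial or surface tissue was absent.

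**Figure D3:**
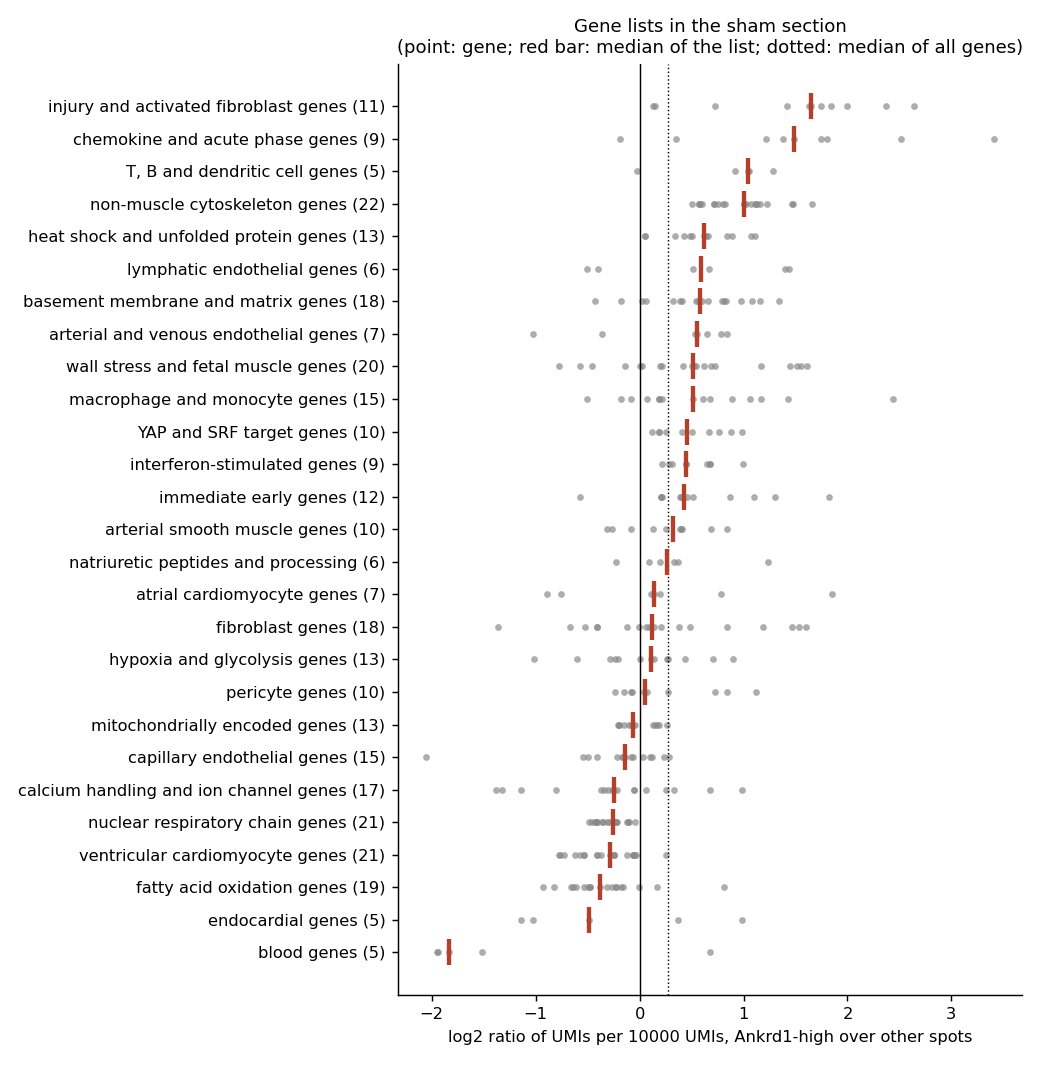
Log2 ratio of Ankrd1-high over other sham spots for the genes of each list with 5 or more measured genes, the number measured in parentheses; grey points are genes, red bars are list medians, and the dotted line is the median of all genes (0.27). Medians ran from -1.83 for blood genes to 1.65 for injury and activated fibroblast genes, with vessel and endocardial lists between -0.48 and 0.59.

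Genes of the working muscle were lower. All but Cacna1c of the 21 ventricular cardiomyocyte genes had negative log2 ratios, with a median of -0.29, although 0 reached 2-fold (2 with TMM factors). Myl2, the ventricular regulatory light chain, ran from 35.5 over a median of 74 to 159 in Ankrd1-high spots and from 27.3 over 129 to 201 in the others, and 3 of the 112 spots lay above the median of the others. Its log2 ratio was -0.77 (-0.79 to -0.74). Hrc (-0.78), Tcap (-0.72), Tnni3 (-0.62) and myoglobin (Mb, -0.57) were lower by similar steps, and Tnnt2 (-0.07) and Atp2a2 (-0.05) by little. Fatty acid oxidation genes had a median of -0.38, with 0 of 19 at least 2-fold lower (2 with TMM factors), led by the fatty acid binding protein Fabp3 with a median spot of 22.6 against 45 and a log2 ratio of -0.93 (-0.98 to -0.89), while Pdk4, a brake on glucose oxidation, was at 0.81. All 21 nuclear respiratory chain genes had negative ratios, from -0.04 for Sdha to -0.48 for Atp5g1. The muscle enolase Eno3 (-1.01) and the M-band protein Myom2 (-1.07) were at least 2-fold lower.

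Haemoglobin transcripts gave the lowest ratios among abundant genes. Hbb-bs, the main adult β-globin, ran from 0 over 1.84 to 21.7 in Ankrd1-high spots and from 0 over 3.64 to 345 in the others, and its summed level was 3.18 (2.92 to 3.44) against 12.2 (12.1 to 12.4), a log2 ratio of -1.94 (-2.06 to -1.83). Hbb-bt (-1.95), Hba-a1 (-1.83) and Hba-a2 (-1.51) were alike, but the pairs of globin genes are nearly identical and their reads may be split between copies. The actin-severing Gsn, the imprinted RNA H19 (-2.33, on 4 UMIs), Igsf1 (-1.87), Abhd18 (-1.78), Lgals4 (-1.68), Csdc2 (-1.60) and the mitochondrial leucyl-tRNA synthetase Lars2 (-0.86) completed the genes with the lowest upper bounds.

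Ankrd1-high spots also differed among themselves. For each list the UMIs of its genes were summed per spot, and a spot was called high in the list when it belonged to the highest 5% of sham spots. Of the 112 spots, 41 (36.6%, 27.7 to 46.2) were high in chemokine and acute phase genes, 37 (33.0%) in neutrophil genes, 34 (30.4%) in heat shock and unfolded protein genes, 29 (25.9%) in non-muscle cytoskeleton genes, 26 (23.2%) in injury and activated fibroblast genes, 25 (22.3%) in basement membrane and matrix genes, 24 (21.4%, 14.2 to 30.2) in wall stress genes, 16 (14.3%) each in natriuretic and arterial smooth muscle genes and 12 (10.7%) in macrophage and monocyte genes. None of the 112 was high in fatty acid oxidation, nuclear respiratory chain or blood genes, for which the exact upper bound of the share is 3.24%. When spots were thinned to 6500 UMIs the chemokine share was 34.9%, the wall stress share 20.2% and the neutrophil share 21.1%. The share of all sham spots of that depth called high was then 4.28%, 4.76% and 3.38% in the same order, against 5.01% before thinning. The neutrophil share therefore fell together with its baseline. The lists are not independent, because Lcn2 stands in both the chemokine and the neutrophil list. Des stands in both the wall stress and the smooth muscle list. The sums also follow their most abundant genes, Actc1 and Cryab for wall stress, Nppa for the natriuretic list and Lcn2 for the neutrophil list. A spot high in the neutrophil list is therefore mostly a spot high in Lcn2. The wall stress sum differed little between Ankrd1-high and other sham spots, at a level of 141 against 135. Its log2 ratio of 0.07 (0.05 to 0.09) lay below the median of all genes and turns negative with TMM factors. The 24 spots called high in wall stress genes are therefore not a measure of Acta1 or Fhl1. Whether these spots were high in those 2 genes was not tested.

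By these calls 52 of the 112 spots (46.4%) were high in chemokine or injury genes, against 110 of the 2122 others (5.18%). A further 14 were high in wall stress genes and in neither of these, and 10 were high in both kinds. High in none of these 10 lists were 28 spots (25%), against 1715 of the others (80.8%), and 30 were high in 4 lists or more. Of the 24 spots high in wall stress genes, 13 were also high in natriuretic genes and 5 in chemokine genes, and of the 41 high in chemokine genes, 24 were high in neutrophil genes and 3 in natriuretic genes. The chemokine and neutrophil lists share Lcn2, so their overlap is partly built in.

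The spots with and without chemokine or injury genes were then set side by side. In the 52 spots high in them Acta1 stood at 9.17 (8.58 to 9.80) per 10000, and in the other 60 Ankrd1-high spots at 10.7 (10.1 to 11.4), against 3.39 in the 2012 sham spots with neither property. Nppb stood at 2.94 (2.60 to 3.30), 2.33 (2.02 to 2.67) and 1.07 in the same order, and Fhl1 at 2.88, 2.73 and 0.849. Acta1 and Fhl1 were thus about as high in the Ankrd1-high spots that were not high in chemokine or injury genes. The 110 other spots high in chemokine or injury genes, which were not Ankrd1-high, also stood above the 2012 for these genes. Acta1 was at 5.21 (4.82 to 5.62) there, Nppb at 2.05 (1.80 to 2.31) and Fhl1 at 2.10 (1.86 to 2.37). The Nppb interval overlapped that of the 60 spots. The neutrophil and macrophage lists did not enter the choice of these classes, but Lcn2 did, because it also stands in the chemokine list. Its level is therefore only described: Lcn2 stood at 2.51 (2.19 to 2.86) in the 60 Ankrd1-high spots high in neither list against 0.494 in the 2012. The same holds for other genes of the lists that chose these classes: in the 60 spots Cxcl5 was at 0.518 (0.379 to 0.691) and Timp1 at 1.70 (1.44 to 1.99), above the 0.056 and 0.303 of the 2012 spots. The 110 other spots that were high in chemokine or injury genes without being Ankrd1-high shared the low muscle genes but not the low blood genes: Myl2 stood at 74.7 there, 64.6 and 82.9 in the 2 classes of Ankrd1-high spots and 128 in the rest, whereas Hbb-bs stood at 13.1, 3.47, 2.86 and 12.2 and Gsn at 10.1, 3.54, 3.16 and 8.53 in this order.

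Across the whole range of Ankrd1 the genes followed different courses. Acta1 rose in each step, from 2.06 in the lowest 25% of spots to 5.25 between the 75th and 90th percentile and 11.1 above the 99th. Clu stayed between 4.64 and 5.58 over the lower 75% of spots and then reached 30.8, and Lcn2 went from 0.26 to 4.83. The neutrophil genes S100a8 and S100a9 did not follow Lcn2 at the top. Between the 75th and 90th percentile they stood at 0.162 and 0.178, and above the 99th at 0.081 and 0.142, on 4 and 7 UMIs. In between, S100a8 reached 0.244 and S100a9 0.340. Cxcl5 and Timp1 peaked between the 95th and 99th percentile, at 1.77 and 3.29, and stood at 0.69 and 2.46 in the top 1%, which is 23 spots. Nppb levelled off at 2.69 and 2.52 in these last steps. Nppa rose in each step up to the 90th percentile, from 2.39 over 3.97 and 5.23 to 7.37. Above the 90th percentile its course was uneven, at 4.76, 6.20 and 2.42. Myl2 fell from 134 to 69.1, and Hbb-bs stayed between 11.2 and 13.7 up to the 90th percentile before 8.13, 3.66 and 1.85.

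**Figure D4:**
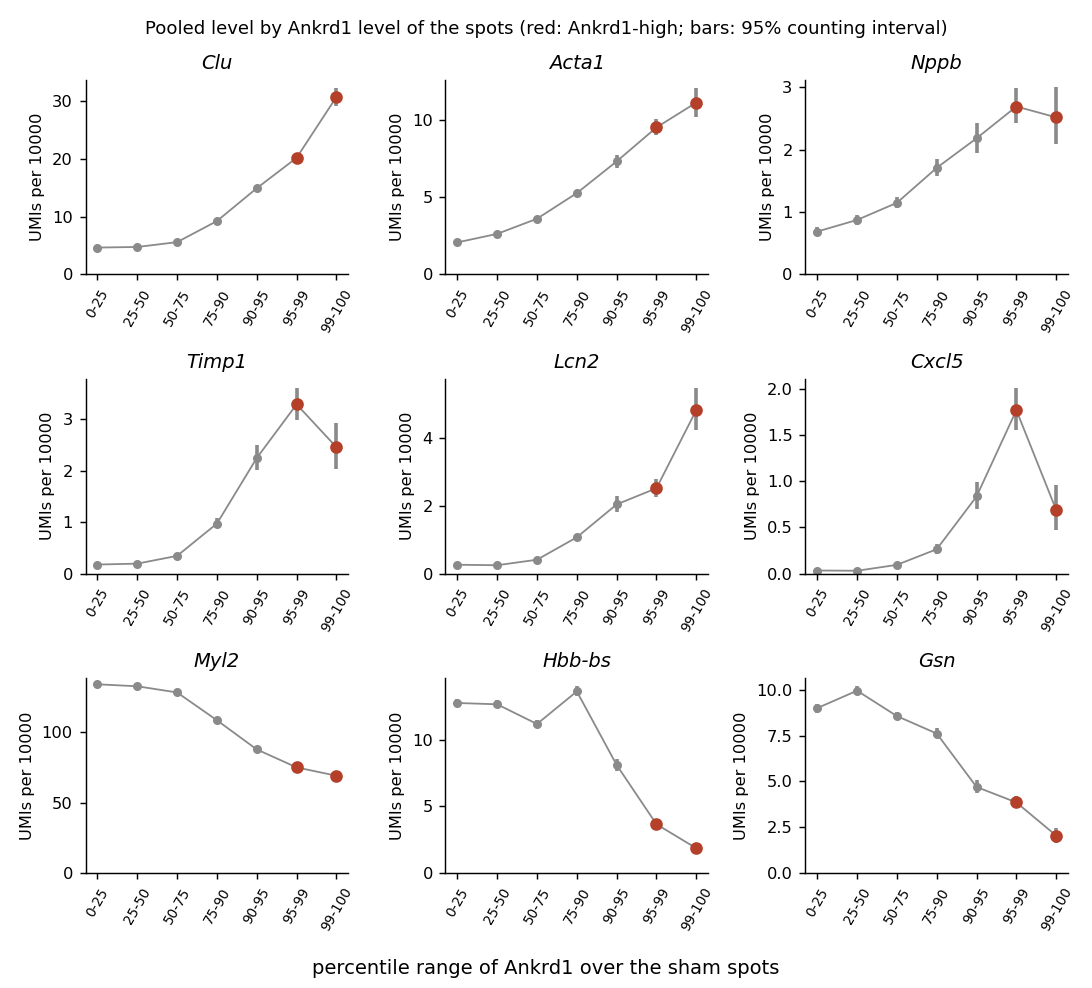
Summed level of 9 genes, in UMIs per 10000 UMIs, in sham spots grouped by the percentile of their Ankrd1 level; points are levels, bars are 95% counting intervals and red points are the Ankrd1-high spots. Clu, Acta1 and Lcn2 were highest above the 99th percentile, Cxcl5 and Timp1 between the 95th and 99th, and Myl2, Hbb-bs and Gsn were lowest at the top.

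The same threshold applied to the ischemic hearts took in 479 of 2082 spots of I/R (23.0%, 21.2 to 24.9) and 326 of 1960 spots of SBP (16.6%, 15.01 to 18.4), so it is no longer an extreme of the section there. The spots it chose there differed from the sham ones in which genes marked them. Ratios of inflammation and matrix genes were larger in sham: in the order sham, I/R and SBP, Cxcl5 stood at 3.41, 0.79 and 1.74, Ccr2 at 2.44, 0.13 and 0.91, Spp1 at 1.74, -0.02 and 0.46, and Col1a1 at 1.60, 0.59 and 0.31. The levels in the Ankrd1-high spots themselves were closer, with Cxcl5 at 1.49, 0.985 and 1.51 per 10000 in the same order and Ccr2 at 0.444, 0.467 and 0.247, while the other spots of I/R stood at 0.568 and 0.428 against 0.14 and 0.0821 in sham. Ccr2 had passed the filter in sham only with its UMIs in Ankrd1-high spots. Natriuretic and stretch genes went the other way: the Nppb ratios in sham, I/R and SBP were 1.23, 2.23 and 2.46, Nppa was at 0.20, 1.87 and 1.36, Xirp2 at 0.54, 1.70 and 1.54 and Ccn2 at 0.98, 1.97 and 1.64. Acta1 (1.51, 1.32 and 1.18) and Fhl1 (1.62, 1.80 and 1.67) had ratios closer together in the 3 sections, as did Gsn (-1.36, -1.33 and -1.22), and Hbb-bs was lowest in sham, at -1.94 beside -0.37 and -0.55. Each section is 1 heart, so condition and heart cannot be told apart and no difference between sections was tested.

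**Figure D5:**
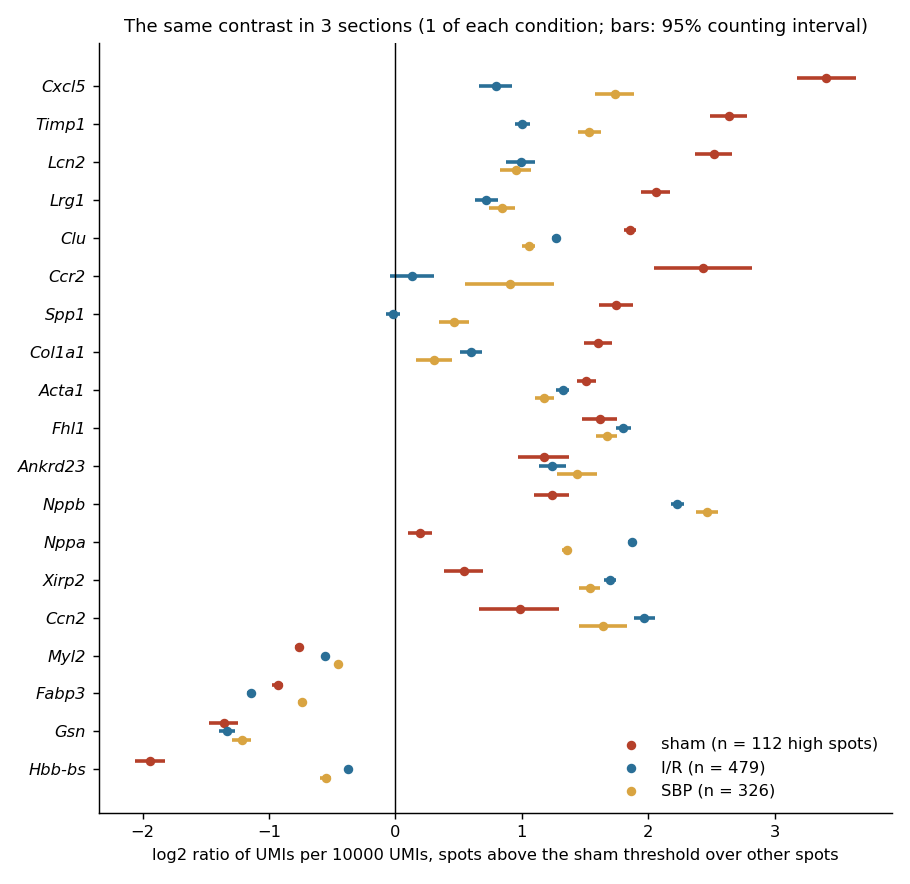
Log2 ratio of the summed levels in spots above the sham threshold over the other spots of the same section, for 19 genes in sham, I/R and SBP (112, 479 and 326 spots above); points are ratios and bars are 95% counting intervals. Inflammation and matrix genes from Cxcl5 to Col1a1 had their largest ratios in sham, and Nppb, Nppa, Xirp2 and Ccn2 in I/R or SBP.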

How the data were processed

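The files hold unnormalized counts that the authors deposited, of the UMIs of each gene in each spot, for spatial transcriptome (Visium) libraries of 10 µm cryosections, 1 section each of sham, I/R and SBP. The submitters' processing notes name Space Ranger 1.3.0 and mm10; the paper states another version and a human reference, while the files list 32285 mouse genes, of which 32235 were found in GENCODE M21. The single-nucleus libraries of the study and the positions of the spots were not used here. Visium arrays share barcodes: 1565 barcodes of sham occurred in I/R and 1563 in SBP, and barcodes were kept apart by section.

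Spots with 200 or more detected genes were kept, and no clustering, cell type naming or doublet calling was run. UMIs were summed over Ankrd1-high and over other sham spots and scaled to 10000 UMIs of the same spots. Intervals at 95% were exact Poisson for levels, exact conditional binomial for ratios and exact binomial (Clopper-Pearson) for shares. The intervals for shares treat the spots of a section as independent draws, so they do not measure differences between hearts. Genes with 200 or more UMIs were described, and a ratio past 2-fold was called. For shares at equal depth, spots were thinned to 6500 UMIs with a fixed seed, which left out 132 spots. Scripts used Python 3.11.15 with pandas 2.3.3, matplotlib 3.10.9, scipy 1.17.1 and numpy 2.4.6, and TMM and median-of-ratios factors came from edgeR 4.0.16 in R 4.3.3. The ratios were tested on simulated sums of UMIs that held Poisson counting error only, so unevenness between spots was not part of that check.

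The text names Ankrd1, the 15 genes with the highest lower bounds and the 15 with the lowest upper bounds, members of 35 gene lists, and the 5 genes most correlated with Ankrd1. The spots and the lists were chosen with earlier results of these data known. Alternatives covered the denominator, scaling, thresholds, filters and which spots entered.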

Additional observations from a re-analysis of the deposited data

Results flagged for a closer look

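3 wall stress genes had ratios of opposite sign in the sham section and in both ischemic sections, with every interval on its side of 0; with 1 section per condition the difference was not tested. The log2 ratio of Csrp3, the muscle LIM protein of the Z-disc, was -0.14 (-0.22 to -0.07) in sham and, for I/R and SBP, 0.997 and 0.74, from levels of 8.55, 24.1 and 17.2 per 10000 in the Ankrd1-high spots. Lmcd1, a LIM and cysteine-rich domain protein, stood at -0.58 (-0.95 to -0.23), 0.72 and 0.59 in the same order. Actc1, the cardiac α-actin, stood at -0.45 (-0.48 to -0.42), 0.14 and 0.095. Scaling alternatives are given here for sham only. In I/R, mitochondrially encoded genes stood at 4060 per 10000 in the spots above the threshold against 4572 in the others. In SBP they stood at 4388 against 4687. Totals without these genes would lower the ratios in both sections, and whether the small Actc1 ratios would stay above 0 was not tested.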

How the results depend on the processing

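No paired analysis was possible because sham, I/R and SBP were 1 section each. The log2 ratios of the genes named first and the list medians kept their sign where they were past 2-fold under every alternative run. Of 714 gene ratios 499 moved by less than the counting interval, and 9 had another sign than the main value. Of 594 list medians, which have no such interval of their own, 503 were classed as unchanged and 91 as moved. Small positive medians turned negative with TMM factors. These were the medians of the natriuretic, atrial, pericyte, fibroblast, valve and cartilage-like matrix, and hypoxia and glycolysis lists. The Nppa ratio, 0.20, was 0.094 without mitochondrial genes in the denominator, -0.079 with TMM or median-of-ratios factors, 0.81 with equal weight per spot, -0.94 above the 99th percentile, -0.50 with spots chosen by Ankrd1 without mitochondrial UMIs, -0.022 without the 5% of spots highest in atrial genes (a sum without Nppa, in which Clu has the most UMIs, so that 53 of the 112 spots are left), 0.40 without spots high in epicardial genes and 0.37 without the richest 1% of spots of each gene. The Nppb ratio, 1.23, was 0.96 with either set of factors, 1.06 above the 99th percentile and 1.05 without the richest 1% of spots. The counts of 300 higher and 59 lower genes became 111 and 145 with either set of factors, 487 and 311 above the 99th percentile, 953 and 268 from 50 UMIs, 131 and 19 from 500 UMIs, and 1515 and 229 at 1.5-fold; the higher count was 155 without the richest 1% of spots and 146 with spots chosen by Ankrd1 without mitochondrial UMIs, and the lower count was 25 above the 90th percentile and 177 without spots high in atrial genes. Of 3 alternatives chosen after seeing the data, leaving out spots high in chemokine or injury genes gave 161 lower genes and a Nppa ratio of -0.16, and spots of 10000 to 20000 UMIs gave a Nppa ratio of 0.71. The depth of a spot limits genes under about 1 UMI per 10000, many of which have a median of 0 over spots.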

Other observations

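Among 17 calcium handling and ion channel genes, 3 were at least 2-fold lower in Ankrd1-high spots, namely Kcnip2, the subunit of the transient outward channel (-1.14, -1.60 to -0.72), and Kcna5 and Hcn2 on 8 and 6 UMIs, whereas the gap junction gene Gja1 was at 0.67 (0.55 to 0.80) and the potassium channel gene Kcnq1 at 0.99 (0.67 to 1.3). Of 12 immediate early genes, Junb (1.82, 1.5 to 2.13), Zfp36 (1.31) and Btg2 (1.10) were at least 2-fold higher and Dusp1 was at -0.57 (-1.04 to -0.14). Of 13 heat shock and unfolded protein genes, 2 protein disulfide isomerase genes, Pdia6 (1.12) and Pdia4 (1.07), were at least 2-fold higher, and the list median was 0.62, with 0 of 13 past 2-fold with TMM factors. For these 3 lists the shares over all genes were 4.5% higher and 0.886% lower.

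Interferon-stimulated genes had 0 of 9 at least 2-fold higher, with Bst2 at 0.996 (0.67 to 1.3) and a list median of 0.44. Hypoxia and glycolysis genes had a median of 0.11, below that of all genes, with P4ha1 at 0.90 (0.56 to 1.23), Vegfa at 0.11 (-0.20 to 0.41) and Egln3 at -1.02 (-1.69 to -0.42). Cell cycle genes were sparse, and higher in sum. Of 10, Stmn1 passed the filter of 200 UMIs (1.07, 0.68 to 1.45), and the summed level of all 10 was 1.46 per 10000 in Ankrd1-high spots against 0.461 in the others, a log2 ratio of 1.67 (1.47 to 1.86). Of the 112 spots, 31 (27.7%) were among the highest 5% of sham spots by this sum. After thinning to 6500 UMIs the share was 14.7%, beside 2.28% of all sham spots of that depth. The proliferation marker Mki67 stood at 0.179 against 0.0378 (2.24, 1.62 to 2.83, on 33 UMIs), and Ube2c, of mitotic exit, at 2.54 (1.94 to 3.12, on 37 UMIs), while Cenpf was at -0.97 (-2.31 to 0.10) on 7 UMIs.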
